A study of Mus musculus with 18 samples.

Results

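The Zfp genes are the mouse genes whose symbol begins with Zfp followed by a digit, a large set of zinc finger protein genes. They were selected by symbol alone from the lists of N4-acetylcytidine (ac4C) peaks of hippocampal mRNA, where 66 of the 4922 mRNAs with a peak in any sample were members. The current RefSeq table for the same genome assembly holds 416 genes with such a symbol, 397 of them protein coding. Most genes with such a symbol thus had no listed peak, and the same share over all annotated genes was not counted. The mice were 3 months old and were either wild type (WT) or 5xFAD, with 3 acRIP samples per genotype. 5xFAD mice carry human transgenes driven by the neuronal Thy1 promoter, among them APP with the Swedish, Florida and London mutations, and the WT mice carry none. The methods name females in one place and littermates of both sexes in another, so the sex of each sample is not given. In acRIP-seq, fragmented RNA is pulled down with an antibody against ac4C, and each listed peak has a fold enrichment (FE), the acRIP signal less the IgG-IP signal over the input. Where an mRNA had several peaks their FE was added up. The files list no value where no peak was called, so a missing peak is not a measurement of absent acetylation. It cannot be told apart from a difference in the level of the mRNA itself, since no expression table was analysed here. In bulk tissue, fewer cells of a type and less RNA per cell cannot be told apart either.

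Most of these proteins are transcription factors of the C2H2 class, in which paired cysteines and histidines hold a zinc ion and fold a short finger that reads DNA or RNA. Many carry a KRAB domain, which recruits the co-repressor Trim28 and histone methyltransferases to silence transposable elements and imprinted regions. The family arose by repeated gene duplication, so its genes lie in clusters and the finger codons of different members resemble each other. ac4C is placed on RNA by the acetyltransferase Nat10. Of the 66 members, 65 had a RefSeq coding sequence to read, 60 of them from the very transcript listed in the files. In 64 of these 65 at least 1 C2H2 finger was found, with a median of 10 and up to 33 in Zfp142, and 21 matched a KRAB pattern. Zfp451 had none in the model used.

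Coding stretches under peaks are shown to let the repeated finger be seen in the mRNA, each 5′ to 3′ on the mRNA strand (genome mm10, sequence from the matching RefSeq assembly GRCm38.p6), with codons of a C2H2 finger in capitals and the linkers between fingers in lower case. Zfp788 (chr7:41650088-41650309, plus strand) and Zfp146 (chr7:30161968-30162229, minus strand) had their peak in 5xFAD samples, and the Zfp142 stretch (chr1:74573591-74573716, minus strand) had its peak in WT samples.
Zfp788: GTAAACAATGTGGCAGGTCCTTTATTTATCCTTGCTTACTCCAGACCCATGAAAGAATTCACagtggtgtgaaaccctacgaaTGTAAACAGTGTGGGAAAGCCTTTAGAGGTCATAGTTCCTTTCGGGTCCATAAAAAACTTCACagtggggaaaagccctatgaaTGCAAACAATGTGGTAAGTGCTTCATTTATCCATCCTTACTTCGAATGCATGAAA
Zfp146: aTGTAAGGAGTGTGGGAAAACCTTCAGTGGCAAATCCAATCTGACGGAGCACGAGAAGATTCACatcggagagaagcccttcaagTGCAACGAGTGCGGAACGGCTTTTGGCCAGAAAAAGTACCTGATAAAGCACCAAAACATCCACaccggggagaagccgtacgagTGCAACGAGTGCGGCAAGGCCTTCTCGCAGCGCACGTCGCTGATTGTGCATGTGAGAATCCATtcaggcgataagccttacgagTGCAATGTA
Zfp142: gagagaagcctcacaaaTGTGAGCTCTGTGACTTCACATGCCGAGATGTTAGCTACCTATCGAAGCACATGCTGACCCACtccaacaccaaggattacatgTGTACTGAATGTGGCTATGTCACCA
The stretch of Zfp788 covered bases 1991 to 2212 of its coding sequence of 2499 bases, and 180 of its 222 bases lay in finger codons.

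The members with a peak were largely different genes in the 2 genotypes. WT replicates 1, 2 and 3 listed 33, 34 and 33 Zfp mRNAs, and 5xFAD replicates 1, 2 and 3 listed 30, 28 and 31. The mean was 33.3 ± 0.577 in WT and 29.7 ± 1.53 in 5xFAD (SD, n = 3). The groups did not overlap, with a two-sided exact permutation p of 0.1, the smallest that 3 against 3 samples allow. All other mRNAs fell as well, from 2823 ± 96.1 to 2600 ± 46.0 (SD, n = 3), so the Zfp share of the mRNAs with a peak was 1.17% ± 0.0289 in WT and 1.13% ± 0.0403 in 5xFAD, which overlapped (exact permutation p = 0.3). Over the 11 measures compared in this way, no adjusted p was below 0.183.

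With a peak required in at least 2 of the 3 samples of a genotype, 60 members could be classed. Of these, 28 were found in WT alone, 26 in 5xFAD alone and 6 in both genotypes. The background over all 4493 mRNAs classed in this way was 40.4% in WT alone and 34.6% in 5xFAD alone, against 46.7% and 43.3% of the members. Among the members 10.0% were in both genotypes, against 24.9% of all mRNAs. No test was made of these shares. No WT-alone member had a peak in any 5xFAD sample, and 24 of the 26 5xFAD-alone members had none in any WT sample. The exceptions were Zfp131 in WT replicate 1 and Zfp319 in WT replicate 2. Over all mRNAs, 1633 of 1817 in WT alone and 1437 of 1555 in 5xFAD alone had no peak in any sample of the other genotype. A peak in all 3 WT samples and no 5xFAD sample was found for 22 members (36.7%, against 29.3% of all mRNAs), and the reverse for 17 (28.3%, against 25.6%). The 6 members that could not be classed were Zfp180, Zfp651, Zfp704, Zfp706, Zfp740 and Zfp850, each listed in a single sample. The 5xFAD-alone Zfp236 and the WT-alone Zfp27 and Zfp516 were among those listed in just 2 samples.

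**Figure D1:**
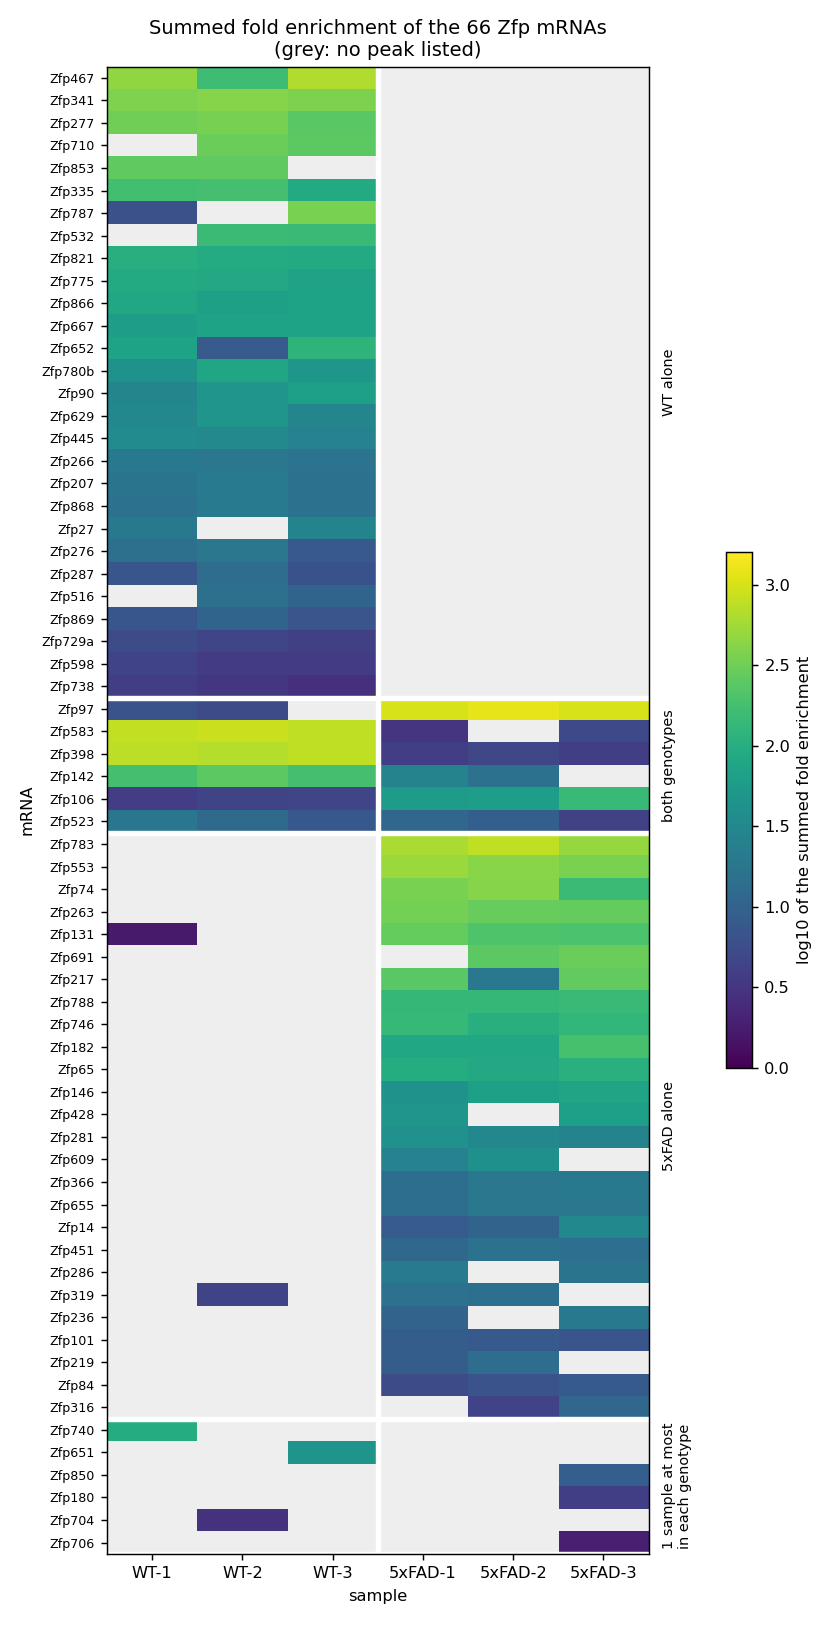
Heat map of log10 summed fold enrichment for each of the 66 Zfp mRNAs (rows) in the 6 samples (columns), grouped by class, with grey where no peak was listed. The 28 mRNAs of WT alone are grey in every 5xFAD sample, and the 6 mRNAs of both genotypes form the band in the middle.

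Among the 6 members of both genotypes, limma called 2 higher in 5xFAD and 3 higher in WT, where the background over the 1121 mRNAs tested was 20.8% higher in 5xFAD and 32.3% higher in WT. With the samples centred on their medians, which moved the log2 fold changes by 0.71, the balance over all mRNAs turned to 329 higher in 5xFAD and 292 higher in WT, against 233 and 362. With so few members, nothing is read from these shares. The median log2 fold change of 5xFAD over WT was -2.65 over these members and -0.47 over all 1121 mRNAs. All calls used limma on log2(FE + 1) with Benjamini-Hochberg adjustment over all of them, a limit of 0.05 for the adjusted p, and at least a 2-fold change. A sample without a peak entered with FE 0. With FE of at least 5 required of a peak, Zfp398, Zfp583 and Zfp106 were no longer of both genotypes and were not tested. In the regions that Zfp398, Zfp583 and Zfp97 held in both genotypes, the FDR of the peaks ran up to 100%.

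Zfp398, whose human counterpart interacts with the oestrogen receptor, had a summed FE of 753, 706 and 772 in WT replicates 1, 2 and 3 and of 3.87, 4.79 and 3.97 in 5xFAD replicates 1, 2 and 3. The genotypes were far apart and the samples within each close together. The log2 fold change was -7.16 (SE 0.189, limma adjusted p = 1.54e-05). Nearly all of this FE came from 1 short region in the coding sequence (chr6:47840252-47840270, plus strand), printed here because it was listed in all 6 samples, with the bases covered in both genotypes in capitals.
Zfp398: ACTTCTGAATGGGACtcgg
It covered coding bases 25 to 43, and the peaks were 15 bp long in 5xFAD and up to 19 bp long in WT. A second region of Zfp398, 299 bp long and 878 mRNA bases downstream, was listed only in WT replicates 1 and 2, with FE 30.8 in each.

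Zfp583, a KRAB-type gene by its coding sequence, had FE 804, 879 and 794 in the WT samples, 3.01 and 5.09 in 5xFAD replicates 1 and 3, and no peak in 5xFAD replicate 2. All WT values were above all 5xFAD values, and the log2 fold change was -8.15 (SE 0.714, limma adjusted p = 4.42e-04). Zfp97, also with a KRAB match, showed the opposite order. It had FE 6.65 and 5.60 in WT replicates 1 and 2, none in WT replicate 3, and 1018, 1207 and 1027 in 5xFAD, the highest summed FE of any member. Its log2 fold change was 8.19 (SE 0.850, limma adjusted p = 7.84e-04). Without the samples that had entered with FE 0, the log2 fold changes were -7.39 for Zfp583 and 7.25 for Zfp97. With pseudocounts of 10 and 0.1 they ran from -6.06 to -9.46 for Zfp583 and from 6.31 to 9.43 for Zfp97. Zfp97 was no longer of both genotypes without WT replicate 1 or 2, nor Zfp583 without 5xFAD replicate 1 or 3, and neither was then tested. The region of each lay across the start codon, and Zfp97 had the same 151 bp peak in every sample that listed it. Their coding bases are printed to show how little of each coding sequence lay under the peak, with the start codon in capitals (Zfp583, chr7:6329255-6329263, minus strand, and Zfp97, chr17:17121508-17121533, plus strand).
Zfp583: ATGtccaag
Zfp97: ATGatgaggatattgtcacttcccac
The 5′ bases of both peaks lie in the untranslated part and are not shown. The whole Zfp97 region matched a transcript of the predicted gene Gm6712 with 97.2% identity over 94.7% of its length, so the reads of these genes may not be separable.

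Zfp106, an RNA-binding protein whose loss in mice causes motor neuron disease, had FE 3.76, 4.56 and 4.67 in WT and 58.7, 61.6 and 146 in 5xFAD. The groups did not overlap, and 5xFAD replicate 3 was well above the other two. The log2 fold change was 3.95 (SE 0.415, limma adjusted p = 8.22e-04). No region was shared. The WT peak was a 16 bp coding stretch (chr2:120516090-120516105), with an FDR of 100% in each WT sample. The 5xFAD peaks were 3 others, of up to 155, 233 and 212 bp. Zfp142, whose human counterpart is mutated in a neurodevelopmental disorder, had FE 181, 251 and 178 in WT, 27.0 and 15.6 in 5xFAD replicates 1 and 2, and no peak in 5xFAD replicate 3. All WT samples were above all 5xFAD samples, and the log2 fold change was -4.70 (SE 1.33, limma adjusted p = 0.0304). Without 5xFAD replicate 3, which had entered with FE 0, it was -3.23 (limma adjusted p = 0.00196). That call was lost with the replicate number as a block (limma adjusted p = 0.0509), with median centring (0.0523), with the highest FE in place of the sum (0.0523), with a pseudocount of 0.1 (0.0933) and without any of the WT samples (0.0596 to 0.0659), with log2 fold changes from -3.97 to -5.85 over these settings. Without 5xFAD replicate 1 or 2, Zfp142 was no longer of both genotypes and was not tested. The WT stretch printed above and the 5xFAD stretch (chr1:74570529-74570864) are 1771 mRNA bases apart.

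Zfp523, the mouse counterpart of human ZNF76, a relative of the promoter-binding factor ZNF143, was the remaining member. It had FE 18.2, 12.6 and 7.69 in WT and 11.3, 9.35 and 4.11 in 5xFAD, which overlapped. The log2 fold change was -0.60 (SE 0.479, limma adjusted p = 0.334). Its WT regions lay at coding bases 233 to 432 and 1572 to 1608. Its 5xFAD region carried the start codon label but lay between them in the model, at coding bases 1166 to 1268 of 1707.

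**Figure D2:**
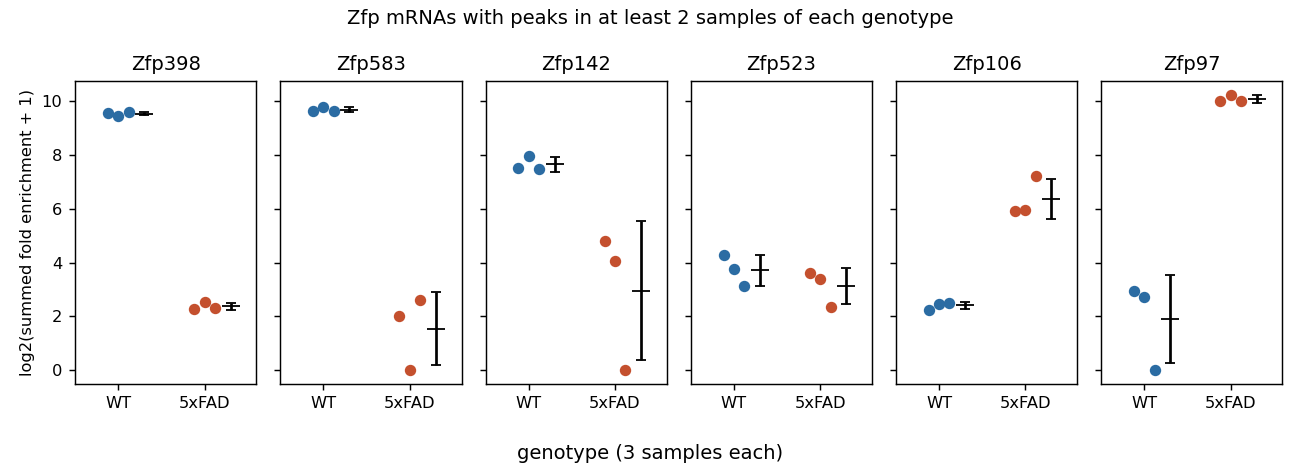
Points give log2(summed fold enrichment + 1) of each sample for the 6 Zfp mRNAs of both genotypes, with the mean and SD of 3 samples as bars, and a sample without a peak is at 0. Zfp398, Zfp583 and Zfp142 are higher in WT, Zfp106 and Zfp97 are higher in 5xFAD, and the samples of Zfp523 overlap.

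The mRNAs of WT alone had mean summed FE from 3.26 to 429, with a median of 51.5, and 7 of the 28 were above 100. The median over the other 1789 mRNAs of this class was 35.6. Of those, 27.4% were above 100, against 25% of the members. The strongest with a peak in all WT samples was Zfp467, an activator of fat cell formation in mouse stroma, with 461, 159 and 665 in WT replicates 1, 2 and 3, a wide spread at a single 76 bp peak in the 5′ UTR. Zfp341, whose human counterpart activates transcription of STAT3, had 377, 420 and 370, values that lay close together. Zfp277, a partner of the Polycomb protein Bmi1, had 324, 345 and 242. Zfp335, which is needed for neural progenitor division, had 172, 180 and 91.6, from a single coding peak of 35 to 39 bp. Zfp821, Zfp775, Zfp866 and Zfp667 followed, with means of 95.7 ± 6.62, 81.9 ± 10.0, 73.4 ± 7.75 and 68.7 ± 6.52 (SD, n = 3). None of these 8 had a listed peak in any 5xFAD sample. The peak of Zfp775 was a 25 bp coding stretch (chr6:48619225-48619249, plus strand) that begins at coding base 32 and is printed, with no capitals, as an example of a short peak at an exon end.
Zfp775: gagatgggctggcaaggatcaagca
The same bases are found in full in a transcript of the predicted gene Gm44965.

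Zfp787 was classed as WT alone although its samples held different regions. WT replicate 1 had FE 6.14 around the start codon and WT replicate 3 had FE 362 around the stop codon, so that no region of this mRNA was listed in more than 1 sample. Zfp652 varied as well, with 72.7, 8.37 and 121, because its second region in the 3′ UTR was missing in WT replicate 2.

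The mRNAs of 5xFAD alone had mean summed FE from 5.23 to 629, with a median of 35.0, and 10 of the 26 were above 100. The median over the other 1529 mRNAs of the class was 37.3. Of those, 29.2% were above 100, against 38.5% of the members, with no test. Zfp783 was the strongest, with 613, 785 and 489 in 5xFAD replicates 1, 2 and 3 from a peak of about 230 bp in the 3′ UTR, and no peak in any WT sample. Zfp553 had 527, 424 and 359 from a peak in the 5′ UTR, and Zfp74 had 360, 418 and 151, the last from 1 of its 2 regions. Zfp263 had 341, 283 and 278. Zfp217, an oncogene in human breast cancer that works with co-repressor complexes, had 240.04, 19.3 and 271. Its low sample, 5xFAD replicate 2, lacked the longest of its 3 regions, which had FE 219.8 in 5xFAD replicate 1 and 219.7 in 5xFAD replicate 3. Zfp788 had 137, 136 and 141, values that lay close together, and Zfp182 had 83.6, 81.0 and 187. Zfp746, known as PARIS, a substrate of parkin that represses the mitochondrial regulator PGC-1alpha, had 139, 101 and 133 from a peak of up to 273 bp around the stop codon.

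With earlier results of these data known, 34 Zfp genes were picked for a known role, so their count is no result. Of these, 16 had a peak in any sample, where 66 of all 416 genes with a Zfp symbol had one. The other members of this kind in 5xFAD alone were Zfp131, a BTB-type transcription factor, with 277, 208 and 196 against 1.68 in WT replicate 1, and Zfp281, a repressor of Nanog in mouse embryonic stem cells, with 41.4, 31.3 and 27.2. Zfp451, whose human counterpart is a SUMO ligase, had 12.17, 16 and 14.79. Zfp609, which acts with Nipbl in cortical progenitors, had 26.2 and 40.4 and no peak in 5xFAD replicate 3, as had Zfp219, a partner of Sox9 in cartilage, with 8.84 and 13.9. In WT alone, Zfp445, which protects imprinted regions from losing methylation, had 34.8, 32.3 and 25.9. Zfp207, a kinetochore protein that binds Bub3, had 17.4, 21.4 and 15.4. Zfp598, the ubiquitin ligase that marks collided ribosomes, had 4.45, 3.69 and 3.72, the second lowest mean of its class. Zfp516, an activator of Ucp1 in brown fat, had 15.2 and 10.7 and no peak in WT replicate 1. Zfp704 and Zfp706 were listed once each, with 2.92 in WT replicate 2 and 1.89 in 5xFAD replicate 3.

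The place of the peaks within the mRNA was compared next. Peaks around the start codon made up 20%, 15% and 15.8% of the Zfp peaks in WT replicates 1, 2 and 3, and 8.33%, 6.25% and 11.4% in 5xFAD. The groups did not overlap, with means of 16.9% ± 2.69 and 8.67% ± 2.61 (SD, n = 3, exact permutation p = 0.1, adjusted p = 0.183). In the other mRNAs the same shares were 9.20% ± 0.28 and 8.20% ± 0.187, also without overlap (exact permutation p = 0.1). In WT this label was on 7 regions seen in at least 2 samples, those of Zfp27, Zfp445, Zfp583, Zfp667, Zfp868, Zfp869 and Zfp97. In 5xFAD it was on 3, those of Zfp523, Zfp583 and Zfp97. In the models used, those of Zfp27 and Zfp523 did not hold the first coding base and the others named did. The region of Zfp27 was 2 bp long and held no coding base, with FE 19.7 and 28.1 in WT replicates 1 and 3.

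The 5′ UTR held 7.63% ± 0.228 of the Zfp peaks in WT and 4.80% ± 1.45 in 5xFAD, again without overlap (exact permutation p = 0.1), where the other mRNAs had 4.40% and 4.25%. Few peaks stand behind these shares. Regions seen in at least 2 samples numbered 3 in WT (Zfp266, Zfp467, Zfp667) and 2 in 5xFAD (Zfp428, Zfp553). That of Zfp667 touched its start codon region in the spliced mRNA, so the same stretch counts at both positions. The coding sequence held most peaks, 55.0% ± 2.43 in WT and 58.4% ± 4.11 in 5xFAD, and these overlapped (exact permutation p = 0.3). Around the stop codon the shares were 9.39% ± 3.27 and 15.4% ± 2.55 (exact permutation p = 0.2), and in the 3′ UTR 11.01% ± 1.32 and 12.7% ± 2.52 (exact permutation p = 0.4). The other mRNAs went from 60.2% to 58.3% in the coding sequence, from 13.5% to 14.6% around the stop codon and from 12.7% to 14.7% in the 3′ UTR, each without overlap. The positions are the authors' labels. In the RefSeq models, with a single transcript per gene, all 45 regions with the coding label held coding bases. With the start codon label, 7 of 10 held the first coding base, and 5 of 13 with the stop codon label held the last. Some of the rest lay away from the codon. The coding bases of the Zfp106 region with the stop codon label were 2414 to 2483 of 5667. Why labels and models differ was not tested.

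**Figure D3:**
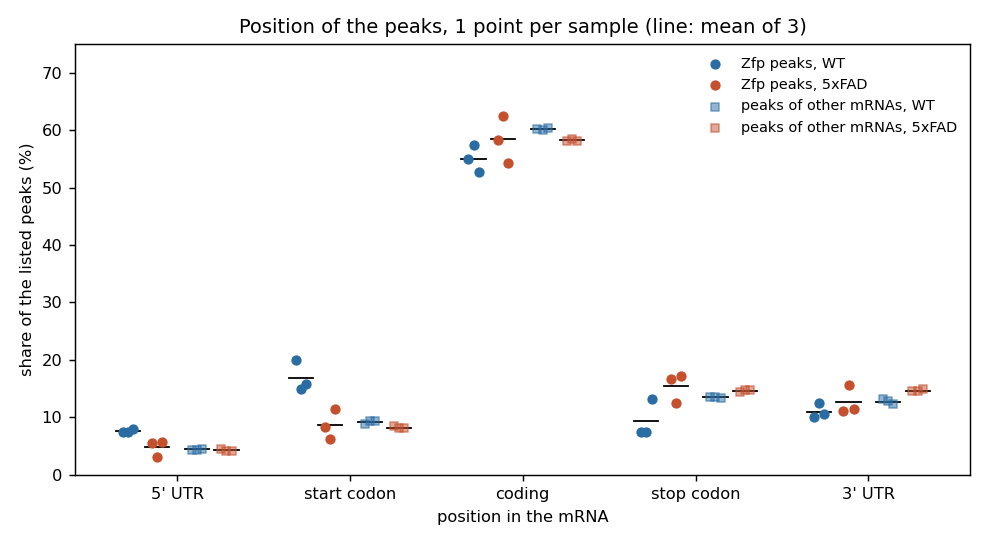
Each point is the share in percent of a sample's listed peaks at 5 positions of the mRNA, for Zfp peaks (circles) and peaks of other mRNAs (squares), in WT (blue) and 5xFAD (red), with lines at the means of 3 samples. The circles at the start codon lie between 15% and 20% in WT and between 6.25% and 11.4% in 5xFAD.

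Peak length was compared in the same way. The median length of the Zfp peaks was 151, 225.5 and 181 bp in WT and 240.5, 238.5 and 233 bp in 5xFAD, without overlap (means 186 ± 37.5 and 237 ± 3.88, SD, n = 3, exact permutation p = 0.1, adjusted p = 0.183). The difference of 51.5 bp was 34.1 bp without WT replicate 1. In the other mRNAs it was 153 ± 2.08 and 154.5 ± 2.18. Peaks under 50 bp were 12 of 40, 11 of 40 and 11 of 38 Zfp peaks in WT, and 4 of 36, 3 of 32 and 5 of 35 in 5xFAD. That is 27.5% to 30% against 9.38% to 14.3%, where the other mRNAs held 17.5% to 17.9% in WT and 17.1% to 17.3% in 5xFAD. The median FE of these short peaks, over the 3 samples together, was 71.7 in WT and 7.26 in 5xFAD, and in the other mRNAs it was 19.6 and 20.1. The Zfp peaks pooled here numbered 34 and 12, and a region counts once for each sample that listed it. The 12 in 5xFAD came only from regions of Zfp217, Zfp398, Zfp583 and Zfp706. These length classes were chosen after the data were seen and were not tested.

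**Figure D4:**
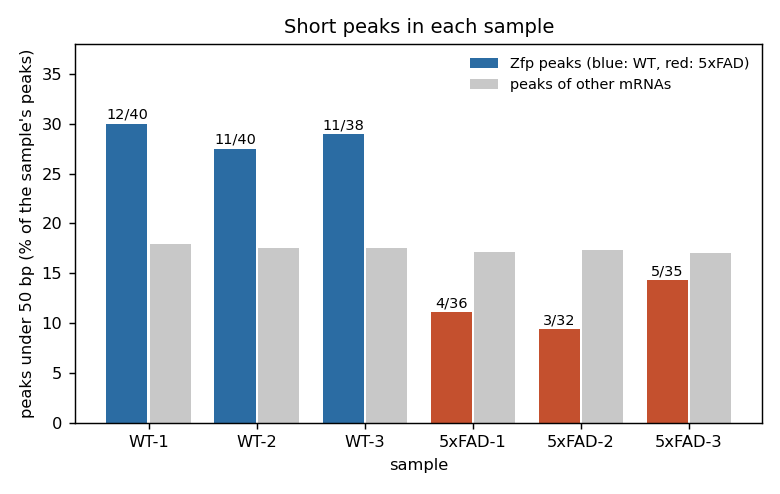
Bars show the percent of each sample's listed peaks that were under 50 bp, for Zfp peaks (coloured, with their counts) and for peaks of other mRNAs (grey). The Zfp bars are above the grey bars in all 3 WT samples and below them in all 3 5xFAD samples.

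All 22 distinct Zfp peaks under 50 bp began or ended exactly at an exon end of a RefSeq model, against 26 of the 110 longer ones. In 7 members, neighbouring regions on different exons touched in the spliced mRNA with no base between them, namely Zfp106, Zfp142, Zfp217, Zfp277, Zfp341, Zfp667 and Zfp74. The FE of touching pieces was nearly equal in some and unequal in others. The 89 bp and 45 bp regions of Zfp341 had 189 and 189 in WT replicate 1, 210.06 and 209.55 in WT replicate 2, and 184 and 185 in WT replicate 3. The 36 bp and 149 bp regions of Zfp667 had 30.19 and 30.96 in WT replicate 1, 35.9 and 36.2 in WT replicate 2, and 36.0 and 36.8 in WT replicate 3. The 19 bp and 126 bp regions of Zfp142, at coding bases 1546 to 1564 and 1565 to 1690, had 67.3 and 114 in WT replicate 1, 106 and 145 in WT replicate 2, and 73.0 and 105 in WT replicate 3. The pieces of Zfp277 were also unequal, with 66.4 and 175 in WT replicate 3, and 1 piece of Zfp74 had no peak in 5xFAD replicate 3. The summed FE counts both pieces of such a stretch.

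The places of the peaks were compared between the genotypes. The Zfp peaks formed 83 regions, of which 74 were seen in at least 2 samples of a genotype. WT alone held 37, 5xFAD alone 34 and both genotypes 3, those of Zfp398, Zfp583 and Zfp97. That is 4.05% in both, against 6.26% of all 7941 regions, with no test. Peaks that matched in both ends made up 56.1% of the shorter of 2 WT lists on average and 52.7% of the shorter of 2 5xFAD lists, but 1.95% between a WT and a 5xFAD list. Over all peaks the same shares were 63.0%, 61.4% and 5.84%.

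The peaks were next set against the finger codons. Of 82 regions with a coding model, 62 held coding bases and 27 held finger codons, which made up at least 50% of the coding bases in 20 regions. In WT, 38.8% ± 1.72 of the members' coding peak bases lay in finger codons, and in 5xFAD 35.0% ± 2.30 (SD, n = 3). Finger codons made up 30.8% ± 1.06 and 29.8% ± 1.45 of the whole coding sequences of the same mRNAs. Long peaks over the finger array were found in both genotypes, for example in Zfp866, Zfp90 and Zfp287 in WT and in Zfp788, Zfp182, Zfp146 and Zfp14 in 5xFAD. Their share of coding bases in finger codons was 72.5%, 74.0%, 74.1%, 81.1%, 80%, 75.6% and 74.5%. In Zfp146, 10 fingers fill 72.4% of the coding sequence, close to the share in its peak.

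**Figure D5:**
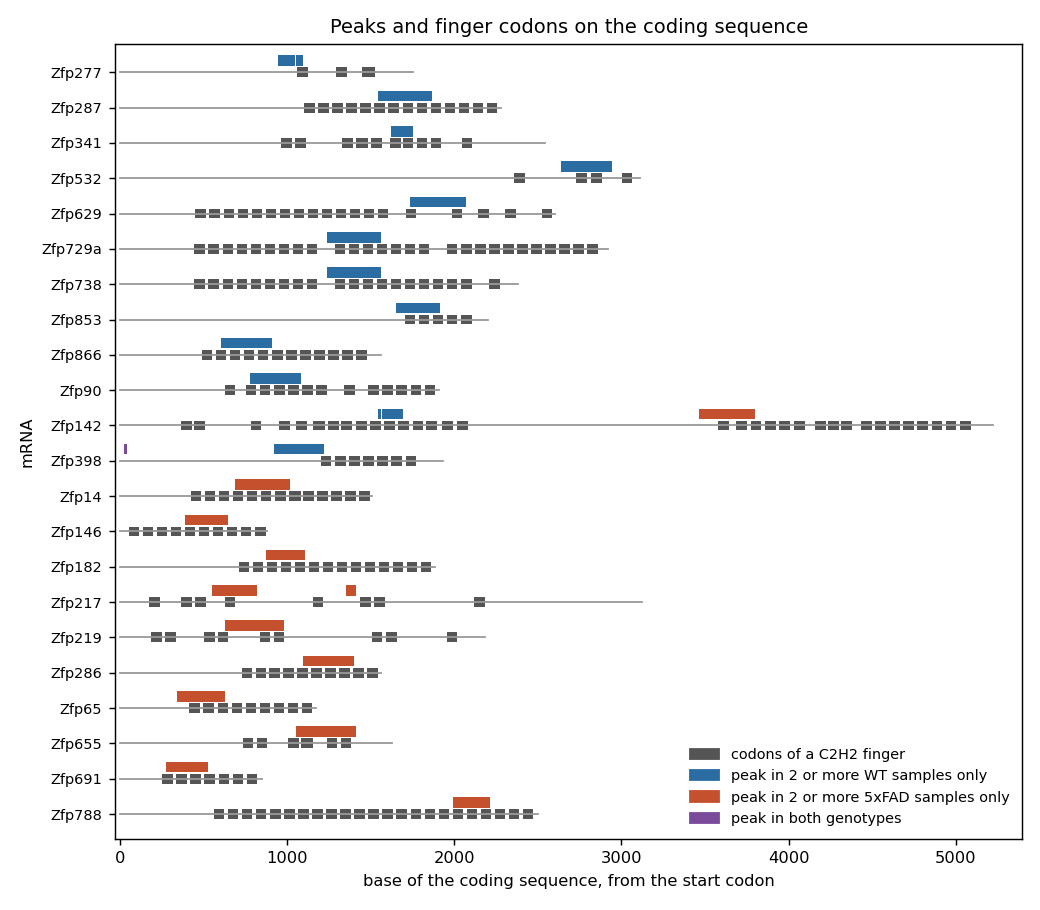
Each grey line is the coding sequence of a Zfp mRNA with a peak on finger codons, from the start codon at base 1, with dark boxes for codons of C2H2 fingers. Coloured bars mark peaks seen in at least 2 samples of WT alone (blue), of 5xFAD alone (red) or of both (purple), and Zfp142 has peaks at different fingers in the 2 genotypes.

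The base content under the peaks was compared with that under other peaks, with no test. Cytosines made up 26.2% to 27.4% of the Zfp peak bases in WT and 25.0% to 26.1% in 5xFAD, against 26.4% to 26.9% and 25.9% to 26.3% in the other mRNAs. A run of cytosines at every 3 bases, CNNCNNCNNCNN on the mRNA strand, with overlapping matches counted, was found in 53.0% of the 132 distinct Zfp peaks and in 53.7% of all 12558 distinct peaks. Since the peaks differ in length, matches were also counted per kb of peak, with 9.70 to 14.2 over the samples for Zfp peaks and 9.76 to 11.3 for the others. No site of acetylation can be read from these matches.

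Near-identical copies limit which member a read belongs to. All 83 regions were searched, although a match of the shortest ones can be missed. In 8 regions, at least 80% of the sequence matched a transcript of another gene with at least 95% identity. Zfp729a and Zfp738, both in WT alone, matched each other at 98.8% over the same coding bases 1238 to 1564. Their FE was also low in both, 5.49, 4.63 and 4.04 in Zfp729a and 3.77, 3.33 and 2.69 in Zfp738, and they may share reads. Zfp869 matched Zfp868 at 98.8%, both regions of Zfp277 matched Gm9200 and Zfp65 matched Gm48894. With members at most 1 Mb apart put in 1 group, 31 of the 66 members fell into 11 groups. On chromosome 8, Zfp868, Zfp869 and Zfp866 lay within 69619344 to 69766364 and all were in WT alone. On chromosome 7, which held 16 members, Zfp84, Zfp27, Zfp74, Zfp14 and Zfp146 lay within 29779514 to 30162229. Of these, 4 were in 5xFAD alone and Zfp27 was in WT alone. Genes without a listed peak were not considered and may lie between grouped members. The 5 members grouped on chromosome 6 were split, Zfp467 and Zfp775 in WT alone, Zfp783 and Zfp746 in 5xFAD alone, and Zfp398 in both.

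Within each sample the Zfp peaks were compared with the other peaks of the list. A Zfp mRNA had 1.17 peaks on average and another mRNA 1.503, lower in 6 of 6 samples (difference -0.334 ± 0.0475, SD over samples). The median FE of a Zfp peak was above that of other peaks in 6 of 6 samples, 30.9, 36.0 and 47.5 against 23.1, 24.2 and 23.1 in WT and 25.4, 28.3 and 27.2 against 19.9, 21.8 and 22.5 in 5xFAD. Both had an exact sign-flip permutation p of 0.0312, the smallest that 6 samples allow, and an adjusted p of 0.125 over 8 measures, so neither passed. Samples of a genotype share many peaks, so this test measures only whether the samples agree. The median FE of the Zfp peaks was higher in every WT sample than in any 5xFAD sample (38.1 ± 8.49 and 27.0 ± 1.46, SD, n = 3, exact permutation p = 0.1, adjusted p = 0.183), and that of other peaks likewise (23.5 ± 0.637 and 21.4 ± 1.37). The Zfp difference of -11.2 was -6.49 without WT replicate 3. Summed per mRNA, the Zfp values overlapped, at 40.2 ± 9.42 in WT and 33.7 ± 2.48 in 5xFAD (exact permutation p = 0.3), and the difference of -6.49 ran from -1.62 without WT replicate 3 to -11.02 without WT replicate 1.

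Co-repressors of KRAB zinc finger proteins and other heterochromatin factors were counted from a list of 27 genes. Peaks were listed for 15 of them, 4 in WT alone, 4 in 5xFAD alone, 5 in both genotypes and 2 in neither. Over all classed mRNAs the first 3 of these classes held 40.4%, 34.6% and 24.9%. The largest differences of mean FE in the list went either way. Atf7ip had 469 in WT and 6.06 in 5xFAD, and Hdac2 had 0.633 in WT and 487 in 5xFAD. Trim28, the scaffold that KRAB domains bind, was in WT alone with 15.4, 22 and 15.1. Setdb1, the histone H3 lysine methyltransferase of the complex, was in 5xFAD alone with 19.1 and 46.7 in replicates 1 and 3 and no peak in replicate 2. By limma 1 of the 5 genes in both genotypes was called higher in 5xFAD and 2 higher in WT, where the shares over all mRNAs tested were 20.8% and 32.3%. Zinc finger families with other names, from Zbtb to Zcchc, were matched by symbol, which need not mean a zinc finger in every protein. They had 64 mRNAs with a peak, 23 in WT alone, 25 in 5xFAD alone, 8 in both and 8 in neither. All classed mRNAs held 40.4%, 34.6% and 24.9% in the first 3 classes.

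Across the whole lists, 2575 to 2938 mRNAs per sample had a peak. No peak of any member had an FDR under 5%, the lowest was 20.2% and 62 of the 221 Zfp peaks were at 100%. Among cell type markers, peaks were listed for 6 of 12 genes of hippocampal excitatory neurons, 6 of 6 of astrocytes, 4 of 8 of interneurons, 4 of 6 of the oligodendrocyte lineage, 3 of 4 of blood vessels and 2 of 6 of microglia. A peak list shows no expression level, so this describes which of these mRNAs were enriched and not the makeup of the tissue.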

How the data were processed

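The 6 acRIP peak lists were analysed, and the other 12 libraries of the series, input and IgG-IP, were not analysed here. According to the methods and the submitters' processing notes, the authors trimmed reads with cutadapt 1.9.3, aligned them to mm10 with HISAT2 2.04, called peaks per sample with MACS against input and removed peaks overlapping IgG-IP peaks. The fold enrichment of a peak is the authors' ratio, as deposited. The peak score, -10 times the log10 of p, is the authors' own, as deposited, and was not used in tests. The FDR is deposited as a percent by the authors, and the methods' limit of 5% is not met by any listed peak. Read counts were not given, so depth and its precision are unknown. Spreadsheet dates in number cells were decoded, 0 to 4 per list.

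The members and lists were chosen with earlier results of these data known. Peaks sharing 1 bp or more were joined into regions. Each sample's value entered a two-sided exact permutation test with 20 assignments, and mRNAs of both genotypes with limma 3.58.1 (R 4.3.3) on log2(FE + 1), tested on simulated data. The study calls the samples independent, without saying how many animals each holds, so p-values measure the spread between these samples. Named were the members of both genotypes and the 8 strongest with a peak in every sample of a genotype and none of the other. Also named were the 16 members among 34 listed genes of known role and those with most peaks (Zfp106, Zfp217, Zfp142, Zfp236). A finger was cysteines 2 to 4 residues apart, 12 residues, then histidines 3 to 5 apart. Alternatives were stricter peaks, each sample left out, a peak in all 3 samples, other overlaps, pseudocounts, scaling and filters, and the replicate number as a block.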

Additional observations from a re-analysis of the deposited data

How the results depend on the processing

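No permutation result was called, so those comparisons give no sign of stability. With peaks of FE at least 5, the Zfp share of the mRNAs turned to 0.0545 percentage points higher in 5xFAD (exact permutation p = 0.3). The Zfp mRNAs of both genotypes were 3 with this limit and 3 if every sample of a genotype had to hold a peak, against 6, and 4 to 6 with a sample left out. The shared regions were 1 with either setting and 1 with identical start and end, against 3. By limma, 1 member was called higher in 5xFAD and 1 higher in WT with either setting, against 2 and 3. These were Zfp97 and Zfp142 with FE of at least 5, and Zfp106 and Zfp398 with a peak in every sample. With a sample left out, 1 to 2 were called higher in 5xFAD, 1 without WT replicate 1 or 2. Likewise 1 to 2 were called higher in WT, 1 without 5xFAD replicate 1. Fewer samples leave fewer mRNAs in both genotypes. Median centring moved the log2 fold change of every tested Zfp mRNA by the same 0.71. That shift took Zfp523 from -0.60 to 0.11 (limma adjusted p = 0.886).

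Same-numbered samples did not deviate together (correlations -0.0350 to -3.80e-04), nor did the other pairs (-0.0353 to 0.0381). Most classed mRNAs were in a single genotype, so a pairing could be missed, and whether the number pairs samples is unknown. With the replicate block, limma called 2 members higher in 5xFAD and 2 higher in WT, and the permutation p values were 0.25 or 0.5, where 0.25 is the smallest possible. No member is of the CCCH type, so leaving those out changed nothing. The lists hold no read counts, so what depth limits is unknown.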
